A study of Homo sapiens with 6 samples.

Results

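The genes described here are 42 listed genes of protein folding, translocation and degradation in the endoplasmic reticulum (ER), chosen by name from 19974 protein-coding genes. They comprise 10 chaperones and cofactors, 8 genes of disulfide and proline chemistry, 3 genes of the lectin cycle, 11 genes of translocation and signal peptide removal, and 10 genes of ER-associated degradation. Their chromatin was mapped with ATAC-seq, an assay that uses the Tn5 transposase to tag open DNA, in KMS-11, a human multiple myeloma line. The ATF4 knockdown libraries carry the treatment label LentiV2_ATF4g3 and the controls the label LentiV2, with 3 libraries each, and both groups share the genotype label WT. A single guide in a single line was used, and the labels do not say how the guide acts or whether the cells were cloned. The samples are labelled as biological replicates, and p-values measure only the spread between them.

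Antibody-secreting cells push large amounts of protein through the ER. The Sec61 channel and its partners pass the growing chain across the membrane, the signal peptidase removes its leader, and chaperones, disulfide isomerases and lectins fold it. Chains that fail to fold are marked by the mannosidase-like EDEM proteins and recognised by lectins such as OS9. These chains are drawn back through the membrane around the SEL1L and SYVN1 ubiquitin ligase, and destroyed by the proteasome. Stress in the ER starts the unfolded protein response, in which the sensors ATF6, IRE1 (gene ERN1) and PERK (gene EIF2AK3) raise the expression of many of these genes. ATF4 is the transcription factor made downstream of PERK. ATF6 and XBP1 act through the ER stress response elements (ERSE and ERSE-II) and the unfolded protein response element (UPRE), while ATF4 binds elements of the CARE type with a C/EBP partner.

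Open promoters were shared by both groups, and several carried ERSE sequences that lay under the peaks. RefSeq promoters on GRCh38.p14, from 250 bases before to 50 bases after a start, were found for 38 of the 42 genes; PDIA3, SPCS1, DERL1 and DERL3 had no entry. On both strands, ERSE (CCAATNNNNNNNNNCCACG) matched in 7 of the 38 genes (18.4%), against 21 of 15813 genes in the table (0.133%). The 7 were the chaperone genes HSPA5, HSP90B1 and CRELD2, the lectin genes CALR and CANX, the oxidase gene ERO1B and the disulfide isomerase gene PDIA6. ERSE-II (ATTGG and CCACG parted by 1 base) matched in HYOU1, SDF2L1 and HERPUD1, 3 of 38 genes (7.89%) against 15 of 15813 (0.0949%). UPRE (TGACGTGG) matched in HYOU1, SEC62, SSR3 and TXNDC5, 4 of 38 (10.5%) against 166 of 15813 (1.05%). CARE (TGATGNAA) matched in HERPUD1 alone, 1 of 38 (2.63%) against 571 of 15813 (3.61%). The list holds textbook targets of the unfolded protein response, so these shares describe the list and are no test. A match is a run of letters, and binding was not measured.

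The 250 bases before the start of 6 of these genes are given 5′ to 3′, because they show where the elements sit in the open DNA of the best known members. Capitals mark ERSE in HSPA5, HSP90B1, CRELD2 and CALR, ERSE-II in HYOU1 and HERPUD1, the UPRE that overlaps the outer ERSE-II of HYOU1, and CARE as the outer match of HERPUD1. Only exact matches are in capitals, and near matches stay in lower case.
HSPA5 (chr9:125241344-125241593, minus strand): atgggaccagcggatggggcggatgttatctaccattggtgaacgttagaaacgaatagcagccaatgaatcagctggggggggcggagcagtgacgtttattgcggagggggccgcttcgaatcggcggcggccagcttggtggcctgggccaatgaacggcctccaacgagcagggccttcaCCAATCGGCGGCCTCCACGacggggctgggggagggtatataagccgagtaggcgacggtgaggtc
HSP90B1 (chr12:103930160-103930409, plus strand): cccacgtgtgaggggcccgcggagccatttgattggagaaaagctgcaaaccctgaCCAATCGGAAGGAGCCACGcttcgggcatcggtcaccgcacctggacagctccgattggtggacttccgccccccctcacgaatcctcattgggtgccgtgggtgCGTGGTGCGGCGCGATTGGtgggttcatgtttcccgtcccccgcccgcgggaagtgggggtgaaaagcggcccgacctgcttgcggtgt
CRELD2 (chr22:49918384-49918633, plus strand): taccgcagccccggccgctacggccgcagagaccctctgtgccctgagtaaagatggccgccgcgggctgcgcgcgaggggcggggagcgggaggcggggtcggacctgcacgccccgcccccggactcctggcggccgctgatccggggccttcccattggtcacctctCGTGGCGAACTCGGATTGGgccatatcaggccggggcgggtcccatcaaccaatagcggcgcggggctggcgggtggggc
HYOU1 (chr11:119057206-119057455, minus strand): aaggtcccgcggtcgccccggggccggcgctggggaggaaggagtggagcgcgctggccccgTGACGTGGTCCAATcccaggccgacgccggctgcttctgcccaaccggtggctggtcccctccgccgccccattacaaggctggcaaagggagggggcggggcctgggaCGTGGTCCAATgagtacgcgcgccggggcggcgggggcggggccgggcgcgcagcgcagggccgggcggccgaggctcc
CALR (chr19:12938359-12938608, plus strand): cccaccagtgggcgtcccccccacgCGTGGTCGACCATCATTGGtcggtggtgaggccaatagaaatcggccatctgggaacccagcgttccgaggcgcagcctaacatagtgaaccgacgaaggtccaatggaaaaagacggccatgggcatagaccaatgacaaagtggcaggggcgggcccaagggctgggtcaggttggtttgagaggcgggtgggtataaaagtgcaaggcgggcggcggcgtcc
HERPUD1 (chr16:56931892-56932141, plus strand): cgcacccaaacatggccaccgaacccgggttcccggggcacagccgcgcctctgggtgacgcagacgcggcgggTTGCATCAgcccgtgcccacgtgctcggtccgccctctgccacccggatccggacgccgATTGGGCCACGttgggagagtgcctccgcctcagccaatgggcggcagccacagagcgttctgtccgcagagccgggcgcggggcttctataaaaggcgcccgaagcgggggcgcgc

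Listed peaks covered each ERSE and ERSE-II match in all 6 libraries. In HSPA5, which encodes the main ER chaperone BiP, the match ran from −66 to −48 bp of the start, and the summits lay at −70, −97 and −69 bp in ATF4 knockdown libraries 1, 2 and 3, against −66, −162 and −159 bp in control libraries 1, 2 and 3. In HYOU1, an Hsp70-like chaperone with matches at −185 to −175 and −79 to −69 bp, the summits lay at −71, −102 and −80 bp in knockdown libraries, against −147, −129 and −131 bp in controls. All 3 knockdown summits of HYOU1 were nearer to the start than the 3 control summits. In HERPUD1, an adaptor of the degradation complex, they lay at −113, −126 and −103 bp in knockdown libraries, against −147, −131 and −123 bp in controls, with the match at −117 to −107 bp. In CRELD2, a secreted stress-response protein, the match ran from −80 to −62 bp, with summits at −48, −65 and −50 bp in knockdown libraries and −79, −75 and −60 bp in controls. The positions of these summits overlapped between groups in HSPA5, HERPUD1 and CRELD2. At the PDIA6 promoter with the ERSE match, the knockdown summits lay at −53, −45 and −61 bp. Its control summits lay farther out, at −67, −69 and −66 bp. In the other genes with an ERSE or ERSE-II match the positions overlapped or met. How often the groups separate over all promoters was not counted, so the separation is no result about HYOU1 or PDIA6. The UPRE of TXNDC5 (−92 to −85 bp) and of SEC62 (−17 to −10 bp) was covered in all 6 libraries, and the UPRE of an internal start of SSR3 in 0.

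**Figure D1:**
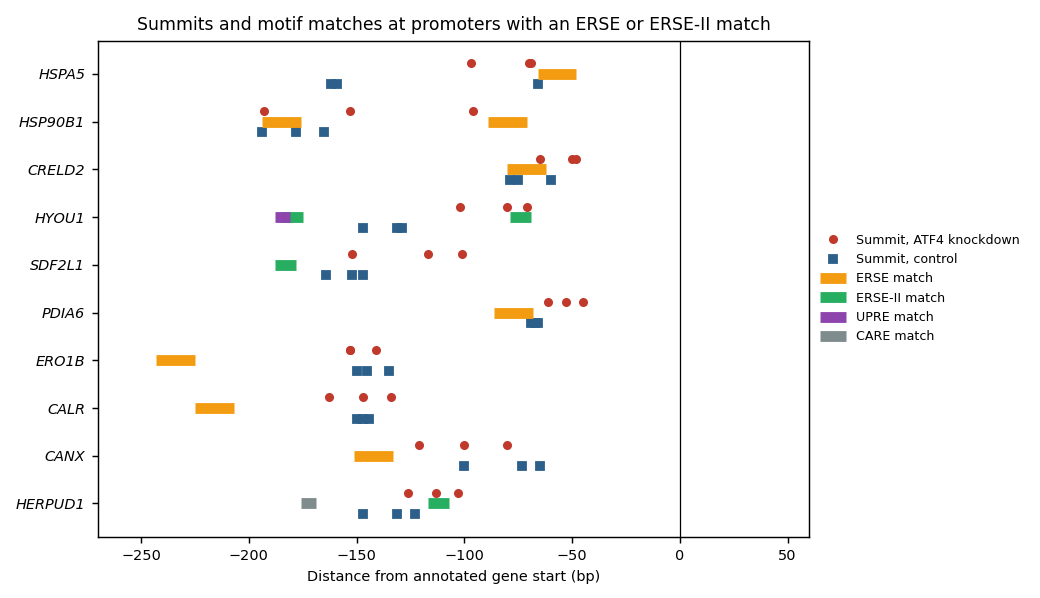
Positions of motif matches (bars) and of the peak summits (red circles, ATF4 knockdown; blue squares, control) against distance from the annotated start in bp, for the 10 genes with an ERSE or ERSE-II match. Summits of both groups lie within the plotted promoters. In HSPA5 they run from −162 to −66 bp, at or beyond the outer edge of its match at −66 to −48 bp. In CALR they run from −163 to −134 bp, on the inner side of its match at −225 to −207 bp.

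The libraries differed in depth by group, which touches every value below. The background pileup, the number of overlapping tags that the caller took as the library-wide rate, was 2.51, 2.15 and 2.51 in knockdown libraries 1, 2 and 3, against 3.19, 2.79 and 3.52 in control libraries 1, 2 and 3. Listed peaks covered 63.0 to 63.9 Mb in knockdown libraries and 67.0 to 70.7 Mb in controls. Covered DNA at ATF4 itself was 2817, 2546 and 3894 bp in knockdown libraries and 4055, 3755 and 4457 bp in controls (log2 difference −0.40, SE 0.14, limma adjusted p = 0.253), and accessibility is no check of a knockdown. All 9 plasma cell markers had covered DNA in all 6 libraries, 34381 to 34545 bp in sum in knockdown libraries and 36990 to 41460 bp in controls. So did all 4 B cell, all 4 T and NK cell, all 4 epithelial or stromal and 3 of 4 myeloid markers, so this count does not separate cell types. The 4 T and NK cell markers had a median of 1136 bp and summed to 3978 to 4569 bp in knockdown libraries and 4924 to 5586 bp in controls. The sums of the B cell, myeloid and epithelial or stromal markers overlapped between groups, and no marker was at 0 in all 6 libraries.

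The strongest peak of most of these genes was a promoter peak, present in every library. Of the 38 genes with a tabulated start, 32 had their strongest summit within 500 bp of a start in all 6 libraries, at a median of −109 bp. In all 6 libraries, 37 of the 42 stood above the median gene of the same library in −log10 q of the strongest peak, and 8 stood above the 90th percentile. The 8 were HSPA5, the BiP cofactor DNAJB9, the disulfide isomerase PDIA4, ERO1B, the translocon-associated SSR3, and EDEM1, EDEM3 and OS9 of the degradation branch. The 5 genes not above the median in every library were MZB1, TXNDC5, ERO1A, FKBP11 and SPCS1. Ranked within a library, the strongest peaks had a lower mean percentile in knockdown libraries for 23 genes and a higher one for 19.

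The deposited fold and −log10 q of these peaks are the authors' values within each list and are given as a description. At PDIA4 the −log10 q was 462, 473 and 511 in knockdown libraries and 727, 749 and 687 in controls, and the fold over local background was 15.3, 16.1 and 16 in knockdown libraries and 16.5, 16.4 and 15.2 in controls. The folds thus overlapped while the −log10 q did not. At HSPA5 the −log10 q was 228, 199 and 233 in knockdown libraries and 413, 463 and 413 in controls, with folds of 14.8, 14.3 and 15 against 15.9, 17.8 and 15.2. At SSR3 the −log10 q was 263, 271 and 302 in knockdown libraries and 566, 550 and 470 in controls, with folds of 20.7, 21.0 and 22.3 against 22.4, 22 and 19.9. At OS9 the folds were 18.5, 18.8 and 20 in knockdown libraries and 22.7, 23.2 and 21.3 in controls, all lower in the knockdown. The median fold over all genes was lower in the knockdown libraries as well.

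The other genes with the highest mean fold in their role gave folds on a similar scale. CRELD2 had folds of 15.4, 17.6 and 16.2 in knockdown libraries and 19.5, 20.6 and 17 in controls, and DNAJC3 had 17.3, 16.1 and 15.3 in knockdown libraries and 17, 18.3 and 14.1 in controls. PDIA3, the disulfide isomerase that works with the lectins, had 16.5, 14.5 and 12.6 in knockdown libraries and 17.4, 17.4 and 14.3 in controls. Among the lectin genes, UGGT1 had 15.9, 15.6 and 17.2 in knockdown libraries and 17.9, 20.9 and 15.9 in controls, with overlap. CANX had 14.4, 15.6 and 15.6 in knockdown libraries and 18.3, 17.5 and 16.1 in controls, at a summit 1060 to 1096 bp beyond its 3′ end, in a region nearest to MAML1. SSR2 had 17.2, 17.7 and 20.5 in knockdown libraries and 22.2, 25.4 and 19.8 in controls, and SEL1L had 17.5, 18.7 and 17.2 in knockdown libraries and 16.7, 18.6 and 16.5 in controls. The mean fold was lower in the knockdown libraries for 33 of the 42 genes, a share not counted over all genes. The median fold over all genes was 11.1, 11.5 and 11.7 in knockdown libraries and 13.4, 14.5 and 12.8 in controls. The pileup at the strongest summit was lower in all 3 knockdown libraries than in all 3 controls for 42 of 42 genes. The same share over all genes was not counted, so this count is no result about these 42 genes. Depth was lower in the knockdown libraries too, and the median −log10 q over all genes was 70.3, 70.3 and 84.0 in knockdown libraries and 142, 151 and 144 in controls. The part of depth in these values was not tested.

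Peak-covered DNA within 10 kb of both gene ends, scaled to the total covered length of each library, gave the comparison between groups. All 42 genes had covered DNA in at least 3 libraries and were tested. None of them passed limma's test at an adjusted p of 0.05 over all 18606 genes tested; the share called among all genes was 0.0% lower and 0.0% higher, and the smallest adjusted p of a member was 0.108. At an unadjusted p under 0.05, 5 members were lower and 1 was higher, against 9.08% lower and 4.89% higher among all genes. All 3 knockdown libraries lay below all 3 controls in 5 members and above them in 2, against 11.9% and 7.68% of all genes. The mean was lower in the knockdown in 29 of 42 members (69.0%), against 54.9% of all genes. The median log2 difference of the 42 was −0.06, against −0.02 over all genes, within a range of −0.44 to 0.59. These counts lay near those of all genes, apart from the share of lower means. The calls moved with the processing. Without scaling, 2 members were called lower and 0 higher, against 3.49% and 0.236% of all genes. In windows of 50 kb, 4 were called lower and 0 higher, against 1.95% and 2.17%. With peaks of a −log10 q of 5 or more, 0 were called lower and 13 higher, against 3.17% and 30.7% of all genes. HSPA5, PDIA4 and OS9 were among the 13, and so were MZB1 (0.30, limma adjusted p = 0.0204), SEC61G (0.35, limma adjusted p = 0.0255) and CANX (0.30, limma adjusted p = 0.0431), whose differences were negative with all listed peaks.

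**Figure D2:**
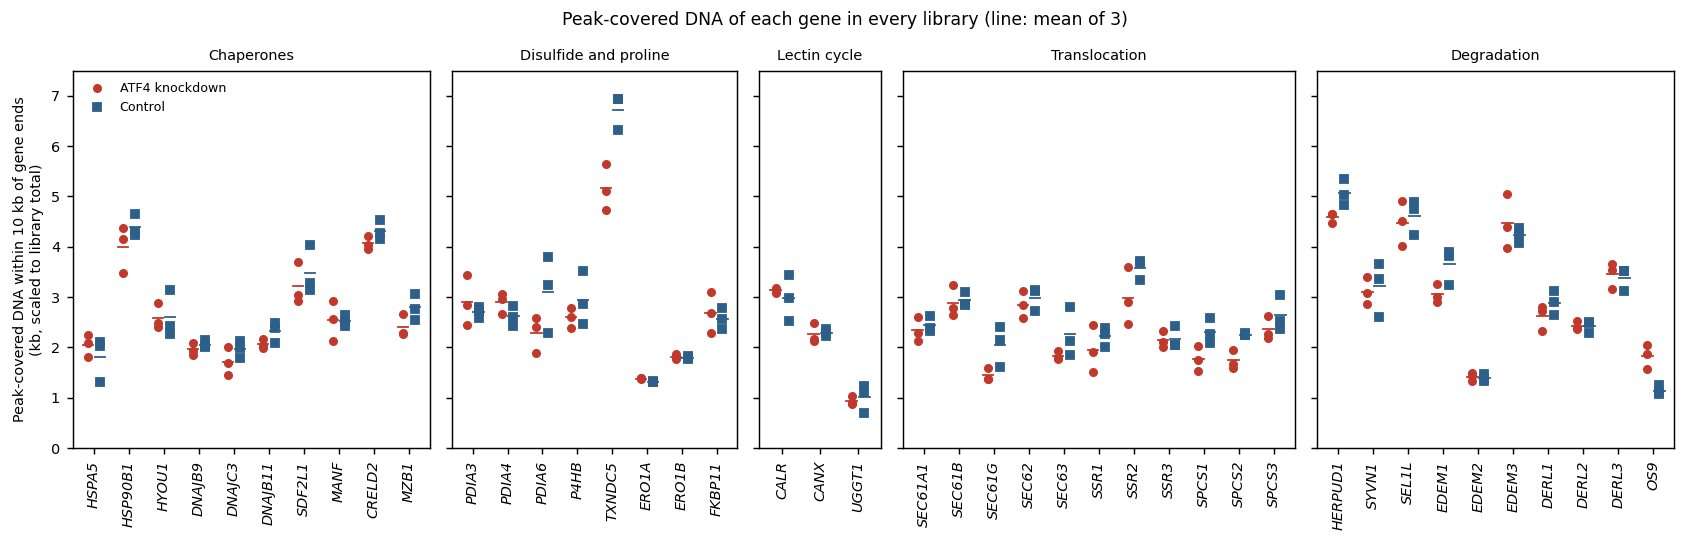
Peak-covered DNA within 10 kb of gene ends (kb, scaled to the library total) for each of the 42 genes in 5 role panels, with a point for each library (red circles, ATF4 knockdown; blue squares, control) and a line at the mean of 3. The groups overlap for most genes; TXNDC5 has the widest gap in kb, with 4731 to 5646 bp in the knockdown and 6311 to 6932 bp in controls.

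Of the 10 chaperone and cofactor genes, 8 had a lower mean and 2 a higher one, none with an unadjusted p under 0.05, and their median was −0.09. HSPA5 (chromosome 9, 125234853 to 125241343, minus strand) had 2246, 2079 and 1813 bp in knockdown libraries and 1318, 2103 and 2022 bp in controls (log2 difference 0.18, SE 0.17, limma adjusted p = 0.693). The groups overlapped, and control library 1 was the lowest of the 6; without it the difference was −0.01. HSP90B1, the ER member of the Hsp90 family, had 3470, 4155 and 4376 bp in knockdown libraries and 4284, 4645 and 4243 bp in controls (−0.13, SE 0.09, limma adjusted p = 0.565). MZB1, a plasma cell cofactor of antibody assembly, had 2278, 2660 and 2263 bp in knockdown libraries and 2541, 2773 and 3066 bp in controls (−0.20, SE 0.10, limma adjusted p = 0.427). Its strongest peak lay 2799 to 2827 bp from a gene end, in a region nearest to SPATA24. DNAJB11, a J-domain partner of BiP, had 2023, 1991 and 2167 bp in knockdown libraries and 2083, 2393 and 2492 bp in controls (−0.16, SE 0.10, limma adjusted p = 0.533). In HSP90B1, MZB1 and DNAJB11 the groups overlapped as well. The other 6 chaperone genes also overlapped, from −0.19 in DNAJC3, a J-domain inhibitor of PERK, through −0.11 in SDF2L1, −0.08 in CRELD2 and −0.06 in DNAJB9, to 0.00 in HYOU1 and in the secreted factor MANF.

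The disulfide and proline genes held the member with the smallest p, TXNDC5, a disulfide isomerase abundant in secretory cells. TXNDC5 (chromosome 6, 7881517 to 7910788, minus strand) had 4731, 5646 and 5112 bp in knockdown libraries and 6311, 6932 and 6931 bp in controls. The groups did not overlap, the log2 difference was −0.37 (SE 0.07, unadjusted p = 0.000846), and it did not pass after adjustment (limma adjusted p = 0.108). It passed without scaling (−0.49) and in windows of 50 kb (−0.32, limma adjusted p = 0.0267), and in windows of 2 kb the difference was 0.06. The window of TXNDC5 also holds an end of BMP6. PDIA6 had 1886, 2408 and 2590 bp in knockdown libraries and 3246, 2284 and 3801 bp in controls (−0.39, SE 0.18, limma adjusted p = 0.379), with overlap through control library 2. The PDIA6 promoter with the ERSE match lies inside the gene and outside its 10 kb windows, so the peak over it is not in these values. P4HB, the classical protein disulfide isomerase, differed by −0.16. PDIA4 had 2668, 3066 and 2964 bp in knockdown libraries and 2819, 2432 and 2601 bp in controls (0.14, SE 0.09, limma adjusted p = 0.550). ERO1A, an oxidase that recharges the disulfide isomerases, had 1386, 1386 and 1365 bp in knockdown libraries and 1338, 1306 and 1320 bp in controls, groups that did not overlap but differed by only 0.05 on the log2 scale (limma adjusted p = 0.868). Before scaling, the peak that makes up this length was 1327, 1314 and 1313 bp wide in knockdown libraries. It was 1425, 1382 and 1333 bp wide in controls, so the direction turned with the scaling. PDIA3 differed by 0.09, the prolyl isomerase FKBP11 by 0.05 and ERO1B by 0.02, with overlapping groups. In all, 3 of the 8 genes had a lower mean and 5 a higher one, with a median of 0.03.

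The lower covered length of TXNDC5 lay away from its start. Within 1 kb of its starts it had 1749, 1866 and 1793 bp in knockdown libraries and 1491, 1643 and 1615 bp in controls. The rest of its windows had 2982, 3779 and 3318 bp in knockdown libraries and 4819, 5289 and 5317 bp in controls. In these scaled lengths the start was thus higher, and the rest lower, in all 3 knockdown libraries than in all 3 controls. Scaling raises knockdown lengths against control lengths, and the split was not made without it. A region of the gene body (7907221 to 7907777) had pileups of 37, 50 and 51 in knockdown libraries and 159, 186 and 187 in controls, with folds of 1.93, 2.42 and 2.20 against 3.51, 4.35 and 3.78. The region at the start (7909842 to 7911771) had pileups of 129, 120 and 117 in knockdown libraries and 286, 236 and 275 in controls, with overlapping folds of 6.17, 5.19 and 4.49 against 5.50, 4.83 and 4.85. A region upstream of the gene (7914209 to 7914736) had no summit in knockdown library 1 and pileups of 54 and 58 in knockdown libraries 2 and 3, against 118, 137 and 147 in controls.

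**Figure D3:**
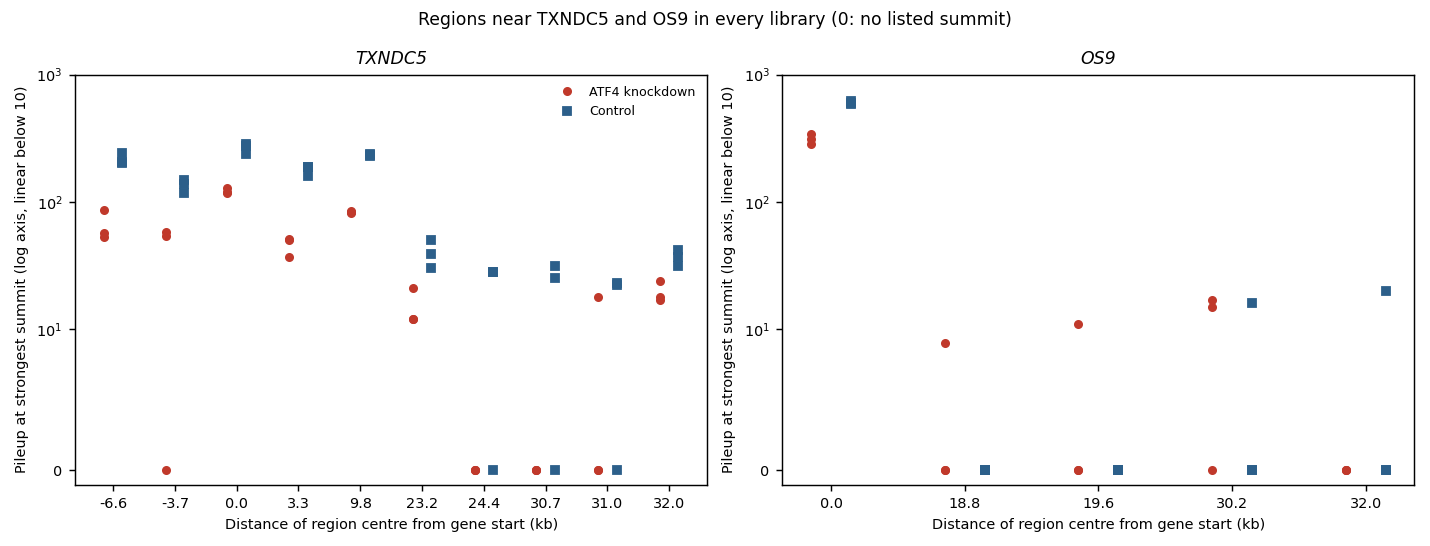
Pileup at the strongest summit of each merged region (log axis, linear below 10; 0 where no summit was listed) near TXNDC5 and OS9, ordered by distance from the gene start in kb, for each library (red circles, ATF4 knockdown; blue squares, control). Near TXNDC5 the knockdown points lie below the controls at the start (117 to 129 against 236 to 286) and more so in the gene body (37 to 51 against 159 to 187), while OS9 has a single strong region, at its start.

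None of the 3 lectin cycle genes came near the threshold. CALR, the soluble lectin chaperone calreticulin, had 3130, 3180 and 3091 bp in knockdown libraries and 2976, 2533 and 3430 bp in controls (log2 difference 0.08, SE 0.11, limma adjusted p = 0.798). CANX, its membrane-bound relative calnexin, had 2167, 2484 and 2134 bp in knockdown libraries and 2358, 2280 and 2220 bp in controls (−0.02, SE 0.09, limma adjusted p = 0.962). The tabulated starts of CANX lie inside the gene and outside its 10 kb windows, so the peak over them is not in these values, while a region at its annotated 5′ end, present in all 6 libraries, is. UGGT1, the sensor that sends misfolded glycoproteins back to the lectins, had 1026, 866 and 892 bp in knockdown libraries and 687, 1108 and 1237 bp in controls (−0.07, SE 0.20, limma adjusted p = 0.909). All 3 overlapped between groups.

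The mean of all 11 translocation and signal peptidase genes was lower in the ATF4 knockdown, with a median log2 difference of −0.19 and a range of −0.44 to −0.02, and none of them passed the test. The median was −0.11 without control library 3. It was 0.01 with only the 10 kb on either side of the 5′ gene ends, where SPCS1 had no value. Of the 11, 3 had an unadjusted p under 0.05 and all knockdown libraries below all controls, against 9.08% and 11.9% of all genes. SEC61G, the small gamma subunit of the channel (chromosome 7, 54752253 to 54759211), had 1587, 1378 and 1376 bp in knockdown libraries and 1606, 2403 and 2144 bp in controls (−0.44, SE 0.15, limma adjusted p = 0.240). With peaks of a −log10 q of 5 or more the direction of SEC61G turned and it passed as higher (0.35, limma adjusted p = 0.0255). SPCS2, a subunit of the signal peptidase (chromosome 11, 74949266 to 74979033), had 1676, 1594 and 1955 bp in knockdown libraries and 2279, 2250 and 2240 bp in controls (−0.34, SE 0.10, limma adjusted p = 0.204). SPCS1, its partner subunit, had 1534, 2027 and 1758 bp in knockdown libraries and 2085, 2258 and 2589 bp in controls (−0.35, SE 0.13, limma adjusted p = 0.261). The highest knockdown library of SEC61G, at 1587 bp, came close to control library 1, at 1606 bp. SEC61A1, the channel's pore subunit, had 2614, 2129 and 2279 bp in knockdown libraries and 2317, 2389 and 2623 bp in controls (−0.06, SE 0.10, limma adjusted p = 0.846), with overlap. The other 7 genes also overlapped: the translocon-associated SSR2 (−0.26), SSR1 (−0.19) and SSR3 (−0.02), the post-translational partners SEC63 (−0.26) and SEC62 (−0.06), the channel subunit SEC61B (−0.03), and the signal peptidase subunit SPCS3 (−0.14). The median of the 11 moved to −0.04 in windows of 2 kb and to −0.03 in windows of 50 kb, and to 0.05 with peaks of a −log10 q of 5 or more, where the median of all genes was 0.19. In 28 other translocation genes, chosen from the same pathway, 18 had a lower mean and 10 a higher one, with a median of −0.05.

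In most translocation genes with a tabulated start, the lower mean lay away from it. The rest of the windows beyond 1 kb of a start was lower in 10 of the 10 translocation genes with a tabulated start (medians of 1022 bp in the knockdown and 1293 bp in controls), while the DNA within 1 kb was lower in 1 of 10. That gene was SSR2, with 934, 984 and 975 bp within 1 kb in knockdown libraries and 1232, 1033 and 1238 bp in controls. SPCS1 has no tabulated start and is not in this split. The listed peak with its strongest summit, at a gene end, was 1468, 909 and 1116 bp wide in knockdown libraries. It was 1607, 1780 and 1974 bp wide in controls. The merged region there spans 1989 bp and starts before all of these peaks, so their widths are not all of its covered DNA. The difference of SPCS1 was −0.29 in windows of 2 kb. In SEC61G the start had 1384, 1378 and 1376 bp in knockdown libraries and 1454, 1395 and 1286 bp in controls. The rest of its windows had 203, 0 and 0 bp in knockdown libraries and 152, 1008 and 859 bp in controls. The regions downstream of the gene with a −log10 q of 2 or more were each found in 1 or 2 libraries, at pileups of 11 to 14, and weaker listed peaks are also counted in these lengths. In SPCS2 the rest had 639, 560 and 750 bp in knockdown libraries and 1374, 1312 and 1228 bp in controls. A region of 761 bp in this window, nearest to XRRA1, had pileups of 7 and 9 in knockdown libraries 1 and 3 and no summit in library 2, against 30, 21 and 13 in controls. With regions given only to their nearest gene, the difference of SPCS2 was 0.16.

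**Figure D4:**
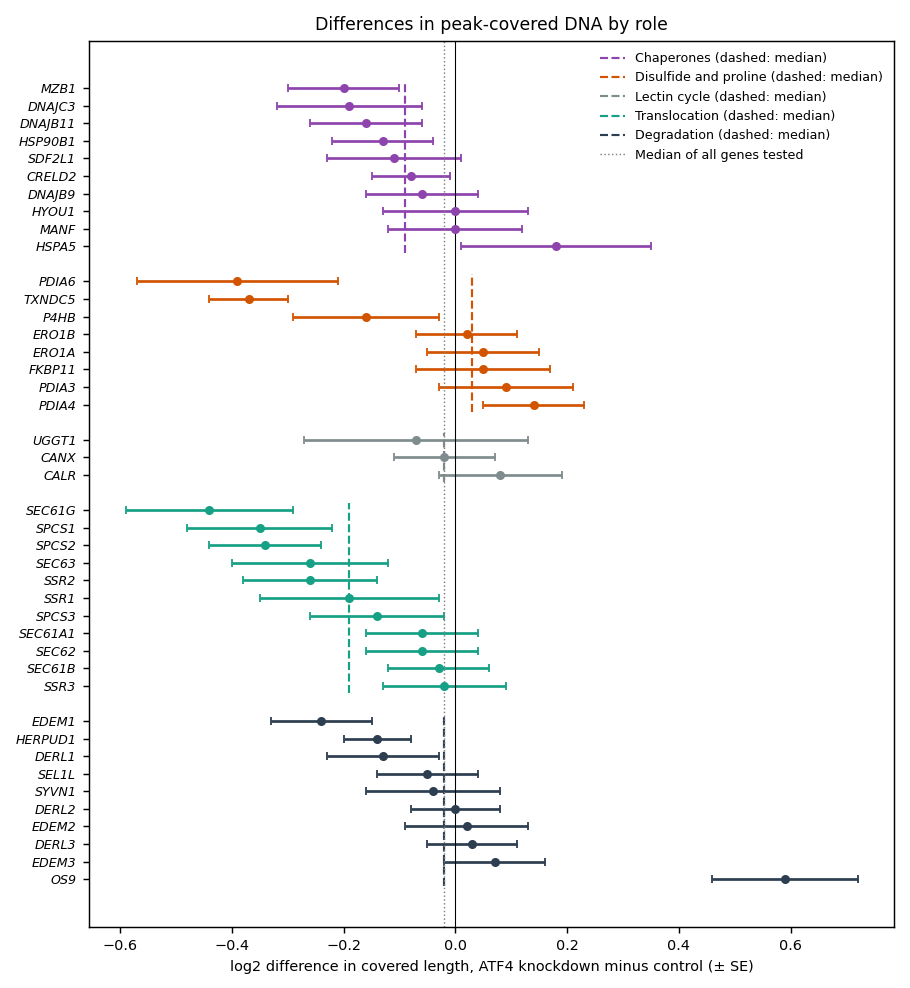
Log2 difference in covered length, ATF4 knockdown minus control, with its SE from limma (n = 3 each) for each gene by role; dashed lines mark the median of a role and the dotted line the median of all genes (−0.02). All 11 translocation genes lie left of 0, with a median of −0.19, and OS9 lies farthest right at 0.59.

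Among the 10 degradation genes, 5 had a lower mean and 5 a higher one, with a median of −0.02. OS9, a lectin that hands misfolded glycoproteins to the ligase complex (chromosome 12, 57694132 to 57721557), had 2043, 1575 and 1865 bp in knockdown libraries and 1245, 1112 and 1073 bp in controls (log2 difference 0.59, SE 0.13, unadjusted p = 0.0013, limma adjusted p = 0.126). The groups did not overlap, and this was the widest difference of the 42 genes in either direction. Its start overlapped between groups, with 1006, 1015 and 976 bp in knockdown libraries and 919, 897 and 1073 bp in controls. The rest of its windows had 1036, 560 and 889 bp in knockdown libraries and 327, 215 and 0 bp in controls, and the regions with a −log10 q of 2 or more in its 3′ part and beside AGAP2 had pileups of 20 or less. With peaks of a −log10 q of 5 or more, OS9 passed as higher (0.33, limma adjusted p = 0.0367), where 30.7% of all genes were called higher. The regions in the rest of its windows did not reach that −log10 q, so this call does not measure them. HERPUD1 (chromosome 16, 56932142 to 56944864) had 4647, 4476 and 4647 bp in knockdown libraries and 5024, 4838 and 5348 bp in controls (−0.14, SE 0.06, limma adjusted p = 0.372). Its groups did not overlap, and without scaling it passed (−0.26, limma adjusted p = 0.0437). EDEM1, a mannosidase-like protein that marks chains for removal, had 2896, 3009 and 3260 bp in knockdown libraries and 3249, 3897 and 3808 bp in controls (−0.24, SE 0.09, limma adjusted p = 0.279). The groups of EDEM1 overlapped, since knockdown library 3 stood just above control library 1. SYVN1, the ubiquitin ligase of the complex, had 3395, 2854 and 3072 bp in knockdown libraries and 3367, 2613 and 3654 bp in controls (−0.04, SE 0.12, limma adjusted p = 0.932), with overlap. The ligase partner SEL1L differed by −0.05, the retrotranslocation genes DERL1, DERL2 and DERL3 by −0.13, 0.00 and 0.03, and EDEM2 and EDEM3 by 0.02 and 0.07, all with overlapping groups.

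The split between starts and the rest, chosen after the values were seen, was also made over the whole set. Over the 38 genes with a tabulated start, the median within 1 kb was 1343 bp in the knockdown and 1231 bp in controls, and the median of the rest was 1262 bp in the knockdown and 1420 bp in controls. The start was lower in the knockdown in 8 of 38 (21.1%), against 34.2% of 14870 genes, and the rest in 30 of 38 (78.9%), against 55.1%. The start was covered in all 6 libraries in 37 of 38 (97.4%), against 70.9% of all genes; the exception, CANX, had its starts outside the windows. Both lengths were scaled by the total of their library, 63.0 to 63.9 Mb in knockdown libraries and 67.0 to 70.7 Mb in controls. That scaling raises knockdown lengths against control lengths. The split was not made without it, so the higher starts cannot be told apart from the scaling. No test of the split was run.

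**Figure D5:**
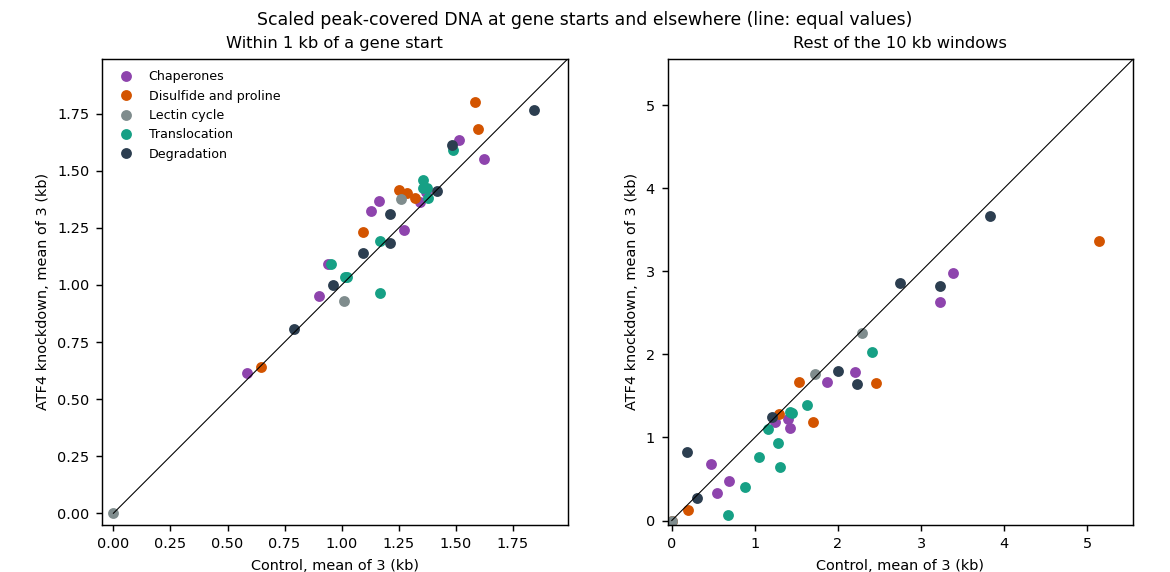
Mean scaled peak-covered DNA (kb, n = 3 each) in ATF4 knockdown against control libraries, within 1 kb of gene starts (left) and in the rest of the 10 kb windows (right), with the line of equal values. Points at starts lie mostly on or above the line (8 of 38 below it), and points of the rest mostly below it (30 of 38).

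Merged regions near these genes were largely shared. Of 227 regions within 10 kb of their ends, 111 (48.9%) were present in all 6 libraries with a −log10 q of 2 or more, against 43.5% of 57170 regions near all gene ends. Each of the 42 genes had at least 1 such region, and 59 of the 227 reached a −log10 q of 2 or more in 1 library only. Some of these held weaker listed peaks in other libraries, and the same share near all gene ends was not counted. None was found in the 3 knockdown libraries alone (0.0752% near all genes), and 1 in the 3 control libraries alone (0.441%, against 1.56% near all genes). That region lay inside DERL1, which encodes a subunit of the channel for retrograde transport, 7057 bp from a gene end, with pileups of 43, 36 and 38 and −log10 q of 6.85, 4.46 and 3.42 in the controls. It spans 173 bp, and the next region of DERL1, 6563 bp from the same gene end, was found in all 6 libraries.

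The other genes of these pathways, 82 in number, gave similar counts. None passed the test, 58 had a lower mean and 24 a higher one, and the median was −0.06. At an unadjusted p under 0.05, 8 were lower and 1 was higher, against 9.08% and 4.89% of all genes, so the lower count lay near that of all genes. SIL1, the nucleotide exchange factor of BiP, had 1862, 1599 and 1440 bp in knockdown libraries and 2700, 2659 and 2704 bp in controls (log2 difference −0.66, SE 0.11, limma adjusted p = 0.102). SEC11C, a catalytic subunit of the signal peptidase, had 1894, 1527 and 2079 bp in knockdown libraries and 2820, 2559 and 2660 bp in controls (−0.51, SE 0.12, limma adjusted p = 0.140). CNPY3, a cofactor of HSP90B1, was the higher one, with 1895, 2147 and 1973 bp in knockdown libraries and 1447, 1575 and 1521 bp in controls (0.36, SE 0.10, limma adjusted p = 0.185). The groups of these 3 genes did not overlap. Of the 82 genes, 12 lay wholly below the controls and 3 wholly above, against 11.9% and 7.68% of all genes. Of 11 signalling genes of the unfolded protein response, 10 had a lower mean, with a median of −0.11. XBP1 among them had 2855, 3091 and 2898 bp in knockdown libraries and 3492, 3030 and 3886 bp in controls (−0.22, SE 0.10, limma adjusted p = 0.372).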

How the data were processed

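The files were 6 ATAC-seq peak lists, 1 per library, with 220250 to 238246 summits on chromosomes 1 to 22 and X. The submitters' processing notes name MACS2 and hg38. The caller's version and settings, the aligner and the handling of the Tn5 offset are not stated in the sources at hand. The deposited fold is a ratio of pileup over the caller's local background, and the deposited −log10 p and −log10 q are the caller's values within a library, so they served only to describe, rank and filter. Fold and −log10 p together gave back each pileup, a whole number whose Poisson p matched within 0.01 (100% of 40000 summits sampled per library). Group labels came from the sample labels.

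For each of 19974 RefSeq protein-coding genes (GRCh38.p14), the peak-covered bases no farther than 10 kb from an end were summed and scaled by the library's total covered length. They were compared as log2(value + 200 bp), a scale that understates differences at genes with little covered DNA. limma 3.58.1 (R 4.3.3; trend and robust options of eBayes; Benjamini-Hochberg adjusted p under 0.05) tested the 18606 genes covered in at least 3 libraries. On simulated data it found 11% of differences of 0.5 and 73% of differences of 1, with 0 false calls. Counting error cannot be given for covered lengths. Regions were peaks of a −log10 q of at least 2 merged over libraries; a region was found in 1 group alone when no peak of the other group overlapped it. Neighbouring genes share windows, and 13 of the 42 genes had theirs alone.

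The members and lists were chosen with earlier results of these data known. Named genes were, per role, the 3 of smallest p and the 2 of highest mean fold, with HSPA5, CALR, HERPUD1, SYVN1 and SEC61A1 as the best known; non-overlapping genes, the control-only region and the other pathway genes were named after their values were seen. Alternatives covered scaling, window, threshold, list length, filter, pseudocount, gene assignment, the replicate block and left-out libraries.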

Additional observations from a re-analysis of the deposited data

How the results depend on the processing

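No member passed in the settings not named here. Without scaling, 2 members were called, TXNDC5 and HERPUD1, both lower. In windows of 50 kb there were 4, DNAJC3, P4HB, TXNDC5 and SPCS2, all lower. At a −log10 q minimum of 5 there were 13, all higher, where all genes had a median of 0.19. The median of all members was −0.18 without scaling, 0.03 within 2 kb, 0.06 and 0.20 at a −log10 q minimum of 2 and 5, and 0.01 with lists of equal length. Chaperone medians were −0.21, 0.05, 0.06, 0.23 and −0.02 in these settings and −0.02 at starts alone. Starts alone here means within 10 kb of the annotated 5′ end of a gene, not within 1 kb of a tabulated start. Disulfide and proline medians were −0.08 without scaling, −0.11 within 50 kb, 0.18 and 0.22 at a −log10 q minimum of 2 and 5, and 0.13 with equal lists. Lectin medians were −0.13, 0.13, 0.21 and 0.08 without scaling, at 2, at 5 and with equal lists, 0.08 at starts alone and 0.10 by nearest gene. Translocation medians were −0.30 without scaling, −0.04 and −0.03 within 2 and 50 kb, −0.11 and 0.05 at 2 and 5, and 0.01 at starts alone. Degradation medians were −0.14, 0.09, 0.16 and 0.08 without scaling, at 2, at 5 and with equal lists. With single libraries left out they ran from −0.04 to 0.04 for disulfide and proline genes, −0.24 to −0.11 for translocation and −0.07 to 0.03 for degradation.

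Signs of single genes turned as follows. Without scaling CALR was −0.04. Within 50 kb PDIA4 was −0.12, CALR −0.09, CANX 0.05 and SEC61A1 0.08. Within 2 kb MZB1 was 0.04, DNAJB11 0.05, HSP90B1 0.05, TXNDC5 0.06, CANX 0.03 and SPCS2 0.16. At a −log10 q minimum of 2, MZB1 was 0.07, DNAJB11 0.04, UGGT1 0.06, CANX 0.13, HERPUD1 0.02 and SYVN1 0.12. At 5, MZB1 was 0.30, DNAJB11 0.08, HSP90B1 0.21, UGGT1 0.21, CANX 0.30, SPCS2 0.05, SEC61G 0.35, SEC61A1 0.05, EDEM1 0.13, HERPUD1 0.04 and SYVN1 0.10. Of these, MZB1, CANX and SEC61G passed as higher. With lists of equal length DNAJB11 was 0.02, UGGT1 0.01, CANX 0.08 and SYVN1 0.06. At starts alone CANX was 0.08 and SEC61A1 0.14, and by nearest gene CANX was 0.10 and SPCS2 0.16; SPCS1 has no tabulated start and no value at starts alone. With single libraries left out, HSPA5 ran from −0.01 to 0.29, CALR from −0.03 to 0.18, UGGT1 from −0.28 to 0.06, CANX from −0.08 to 0.02, SEC61A1 from −0.14 to 0.00 and SYVN1 from −0.17 to 0.06. The cause of these turns was not tested.

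Control-only regions numbered 0 within 2 kb and at a −log10 q minimum of 5, 3 with any listed peak, and 2 to 5 with a library left out; knockdown-only regions numbered 0 to 1. Same-numbered libraries correlated at 0.016, 0.001 and 0.025 in their deviations, and differently numbered ones at −0.027 to 0.012. These values show little shared variation in covered length and cannot tell whether the replicates were prepared as pairs. With the replicate block 0 members were called, and the median was −0.06. The pseudocounts, the filter and limma without trend changed no call. Depth was lower in the knockdown libraries, which limits what can be said of weak peaks.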
